A study of Mus musculus with 4 samples.

Results

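Chd3, Chd4, Chd5 and Chd7 encode chromodomain helicase DNA-binding (CHD) proteins, enzymes that spend ATP to move nucleosomes. The 4 genes were taken by name from the 15002 genes of the deposited tables, and all 4 had a row there. They were measured in single cells of 4 mouse medulloblastomas, cerebellar tumours, each from a different mouse. All 4 mice carried hGFAP-Cre and SmoM2 together with both floxed kinase genes (Prkaa1fl/fl and Prkaa2fl/fl), were untreated and were harvested at postnatal day 16 (P16). The hGFAP-Cre recombinase is driven by a human GFAP promoter and acts in neural stem and progenitor cells of the developing brain, SmoM2 is a constitutively active Smoothened that it switches on there, and the floxed Prkaa1 and Prkaa2 alleles encode the catalytic subunits of AMP-activated protein kinase. No labelled tumour had intact Prkaa1 and Prkaa2, so every level below comes from tumours of this single genotype, and cells in which the recombinase was not active keep both kinase genes.

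CHD proteins carry a pair of chromodomains beside a helicase-like ATPase motor. Chd3, Chd4 and Chd5 are alternative motors of the nucleosome remodelling and deacetylase (NuRD) complex, which joins remodelling to histone deacetylation, and in the developing cerebral cortex they are known to be used in succession as progenitors become neurons. Chd7 belongs to a separate subfamily with Chd6, Chd8 and Chd9, is mutated in CHARGE syndrome, and is needed in cerebellar granule neuron progenitors, the cells from which Sonic hedgehog medulloblastoma arises.

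The stretches below show how near relatives the members are at the motor, which bears on whether the short reads of one could be counted for another. Each is 90 coding bases of the GENCODE M21 transcript with the longest coding sequence, in mouse build GRCm38, written 5′ to 3′ on the gene's own strand. Capitals mark the codons of the Walker B motif of the motor, the DEAH box, which occurs once in frame in each coding sequence.
Chd3: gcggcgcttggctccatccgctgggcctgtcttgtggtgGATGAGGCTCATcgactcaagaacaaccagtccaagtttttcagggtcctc
Chd4: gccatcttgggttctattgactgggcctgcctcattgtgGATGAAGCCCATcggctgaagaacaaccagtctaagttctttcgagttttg
Chd5: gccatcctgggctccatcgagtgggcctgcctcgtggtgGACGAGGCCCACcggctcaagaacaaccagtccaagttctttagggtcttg
Chd7: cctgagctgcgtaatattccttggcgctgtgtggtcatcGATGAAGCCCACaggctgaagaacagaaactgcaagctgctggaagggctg
Chd3 (ENSMUSG00000018474.17) lies on the minus strand at chr11:69343273-69369406, and its stretch joins exons 16 and 17 of 40 at chr11:69356643-69357012. Chd4 (ENSMUSG00000063870.12) lies on the plus strand at chr6:125095981-125130591, and its stretch joins exons 17 and 18 of 39 at chr6:125108722-125109066. Chd5 (ENSMUSG00000005045.16) lies on the plus strand at chr4:152338651-152390194, and its stretch joins exons 16 and 17 of 42 at chr4:152370568-152370742. Chd7 (ENSMUSG00000041235.12) lies on the plus strand at chr4:8690406-8867659, and its stretch falls within exon 13 of 38 at chr4:8828304-8828393. Chd4 and Chd5 had the same base at 75 of the 90 positions, Chd3 and Chd5 at 72 and Chd3 and Chd4 at 63, while Chd7 had the same base as Chd3, Chd4 and Chd5 at 50, 52 and 49. Over their whole transcripts Chd3 and Chd4 shared 10 distinct runs of 30 bases and Chd4 and Chd5 shared 1. None of the last 500 bases of a member's transcript, where 3′-biased reads fall, shared a run of 30 bases with another member. No gene that overlaps a member in the annotation had a row in the tables.

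The 4 libraries held 6734 cell barcodes, of which 3222 had at least 500 unique molecular identifiers (UMIs, tags that count captured RNA molecules), and no barcode occurred in more than 1 library. After 14 called doublets were removed, 3208 cells were left, 763, 802, 563 and 1080 in tumours 1 to 4, with 511059 to 1221638 UMIs of nuclear genes per tumour. The libraries formed pairs: whole-tumour profiles of tumours 1 and 2 had r = 0.93, those of tumours 3 and 4 also 0.93, and profiles from different pairs 0.68 to 0.82. Cells of the first pair had median mitochondrial shares of 10.2% and 11.6%, and cells of the second pair 2.33% and 1.79%. Results were therefore also computed within each pair. Prkaa1 had 28 and Prkaa2 38 UMIs in all kept cells, and such 3′ tags cannot tell intact from recombined transcripts.

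Cells were sorted into classes by the share of their UMIs that fell on marker genes, none of them a member or another chromatin gene described below. Dividing cells (1164, 209 to 417 per tumour) were high for 82 S-phase and G2/M genes. Non-dividing progenitors (369, 71 to 132 per tumour) were low for these and high for 18 genes of hedgehog signalling and granule progenitors such as Gli1 and Atoh1. Neuronal cells (924, 160 to 272 per tumour) were high for 32 genes of granule neuron differentiation such as Neurod1, Cntn2 and Grin2b. A further 665 cells met none of these rules and 86 carried at least 4 markers of microglia, vessel, mural, oligodendrocyte or astrocyte cells. Clusters of cells, used below as an alternative, named 433 cells astrocyte, 52 microglia and 50 oligodendrocyte, against 14, 24 and 27 by these rules. The name of the astrocyte cluster rested on only 4 markers among its 50 leading genes. The classes are ranges of a score and not cell types: 157 cells lay within 0.9 to 1.1 of the cut for dividing cells and 200 within that range of the cut for neuronal cells, and 136 cells were high for both lists. Levels are in counts-per-million (CPM) of the nuclear-gene UMIs of the class, so each describes a share of the RNA captured from those cells. The median UMIs per cell in the 4 tumours ran from 825.5 to 1225.0 in dividing and from 685.0 to 789.0 in neuronal cells, so equal CPM stands for fewer molecules in a neuronal cell.

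Chd3 was the member that differed most between the classes. It was low in dividing cells of every tumour, at 15.8, 56.5, 8.82 and 29.4 CPM in tumours 1 to 4, counts of only 4, 13, 2 and 17 UMIs. In non-dividing progenitors it stood at 142, 211, 33.5 and 76.2 CPM (10, 11, 2 and 10 UMIs), and in neuronal cells at 330, 356, 245 and 204 CPM. Every neuronal value lay above every dividing value. Progenitors lay between the other classes, but in tumour 3 both progenitor and dividing cells had 2 UMIs, under the floor of 3 counts, so the order of these 2 classes is not settled there. The means were 27.6 ± 21.1 CPM in dividing, 116 ± 77.5 CPM in progenitor and 284 ± 71.2 CPM in neuronal cells (SD, n = 4 tumours).

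**Figure D1:**
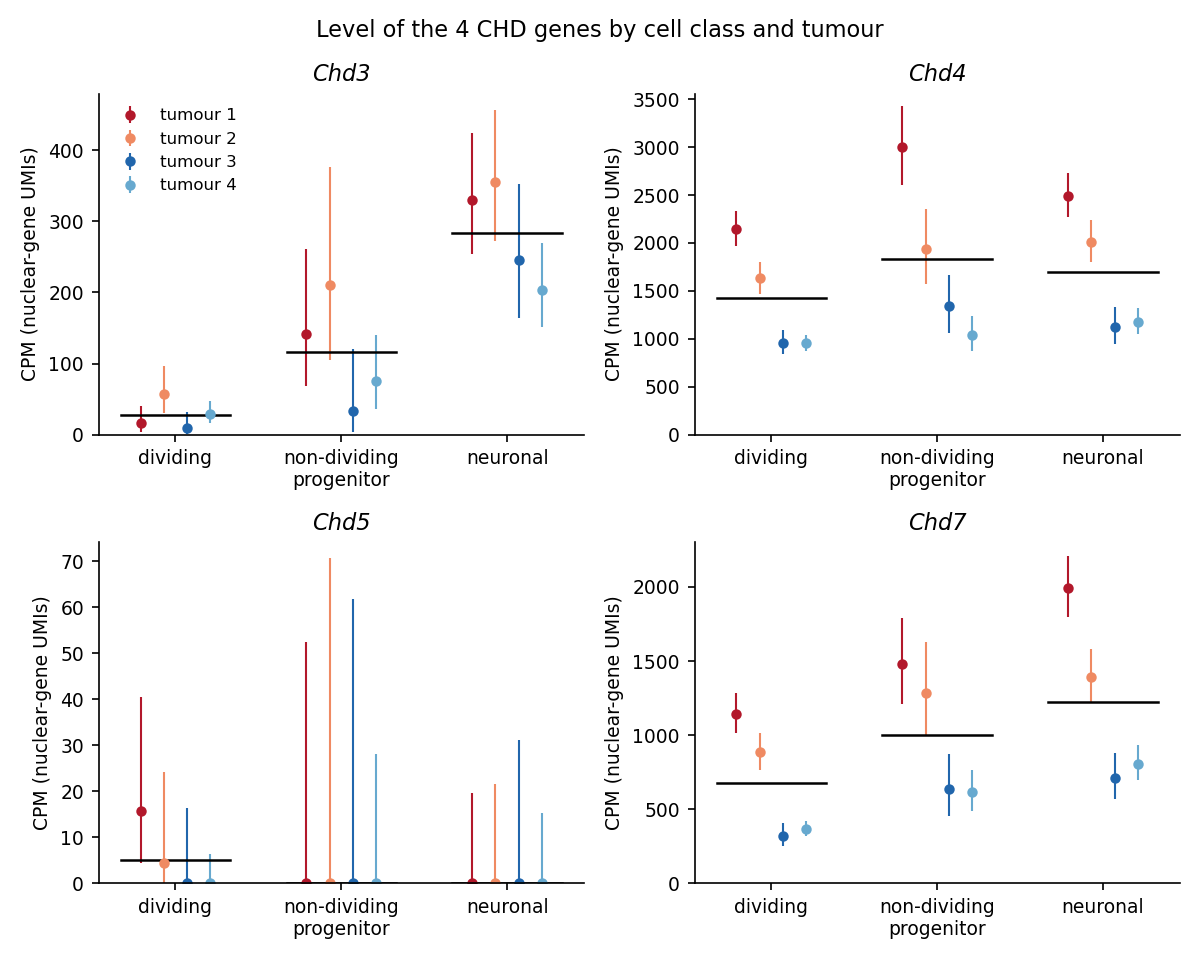
Level of each gene in CPM (y axis, linear, a separate scale per gene) in dividing, non-dividing progenitor and neuronal cells (x axis); points are tumours 1 to 4 with exact 95% Poisson intervals, which cover counting error only, and black bars are means over the 4 tumours. Chd3 rises from a mean of 27.6 to 284 CPM, Chd4 stays between 1422 and 1829 CPM, Chd5 is at 0 outside dividing cells of tumours 1 and 2, and Chd7 rises from 679 to 1226 CPM.

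The neuronal and dividing sums were compared in a fit across all genes with the tumour as a block (edgeR's quasi-likelihood test, Benjamini-Hochberg adjustment). Chd3 was 9.78-fold higher in neuronal cells (95% interval 6.76 to 14.2), a log2 fold change of 3.29 (SE 0.27, adjusted p = 1.07e-13 by edgeR, higher in 4 of 4 tumours). In this comparison 36.3% of the 4797 genes tested outside the marker lists passed at 0.05, 19.4% higher and 16.9% lower in neuronal cells. The balance of these shares turned in many alternatives. With no filter on low counts there were 967 higher and 1399 lower, and without tumour 4 there were 561 higher and 657 lower. More genes were also lower than higher without tumour 1 or 3, in either pair alone and at a mitochondrial share of at most 10% (602 and 743). The same held at a stricter class cut of 1.5 and with cells thinned to 500 UMIs, but not in the remaining alternatives. Chd3 passed the filter on low counts through the classes in which it is high, so its passing the filter is not independent of its difference. Its call held in 17 of 17 alternative settings, with log2 fold changes from 2.95 to 3.72, among them tumours 1 and 2 alone (3.26) and tumours 3 and 4 alone (3.22).

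Chd3 was also higher in non-dividing progenitors than in dividing cells, by a log2 fold change of 1.82 (SE 0.40, adjusted p = 0.00103 by edgeR, 4 of 4 tumours). In this comparison 6.15% of genes passed, 1.61% higher and 4.54% lower in progenitors. It rested on 33 progenitor and 36 dividing UMIs, with tumour 3 under the floor in both classes, and in tumours 3 and 4 alone it was 1.34 (adjusted p = 0.208 by edgeR). With cells of at least 1000 UMIs it fell to 0.45 (adjusted p = 0.828), and with classes taken from clusters to 0.16 (adjusted p = 0.888, both by edgeR). The cluster taken for progenitors was a larger set, 853 cells against 369. Its name rested on 4 markers among its 50 leading genes, the fewest allowed. With no tumour block the Chd3 difference was 1.90 (adjusted p = 0.103 by edgeR), and in all its call held in 13 of 17 alternatives. Between neuronal cells and progenitors, where 15.4% of genes passed (9.13% higher and 6.3% lower in neuronal cells), Chd3 was higher in neuronal cells by 1.47 (SE 0.29, adjusted p = 0.000244 by edgeR, 4 of 4 tumours). There tumours 1 and 2 alone gave 1.09 (adjusted p = 0.0945 by edgeR) and clusters gave 2.96 (adjusted p = 2.06e-13 by edgeR). With no tumour block it was 1.48 (adjusted p = 0.148 by edgeR), and it held in 15 of 17 alternatives. The 3 comparisons share their class sums pairwise, so their calls are not independent of each other.

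Levels were then taken in finer states. Dividing cells were split into S and G2/M by the larger of their marker shares, and neuronal cells into early (such as Dcx and Tubb3) and late (such as Snap25 and Rbfox3). Chd3 had 1, 6, 0 and 3 UMIs in S-phase cells and 3, 7, 2 and 14 in G2/M cells. The means were 24.6 ± 32.3 and 29.7 ± 15.3 CPM (SD, n = 4). Chd3 was higher in G2/M than in S-phase cells in 3 of 4 tumours, a difference that was not tested. In early neuronal cells it stood at 303, 341, 234 and 179 CPM and in late neuronal cells at 378, 380, 264 and 256 CPM. Late exceeded early in 4 of 4 tumours, but in each tumour the 95% counting intervals of the pair overlapped. Unassigned cells had 72.8, 109, 74.5 and 21.5 CPM, below the neuronal cells of the same tumour in 4 of 4.

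**Figure D2:**
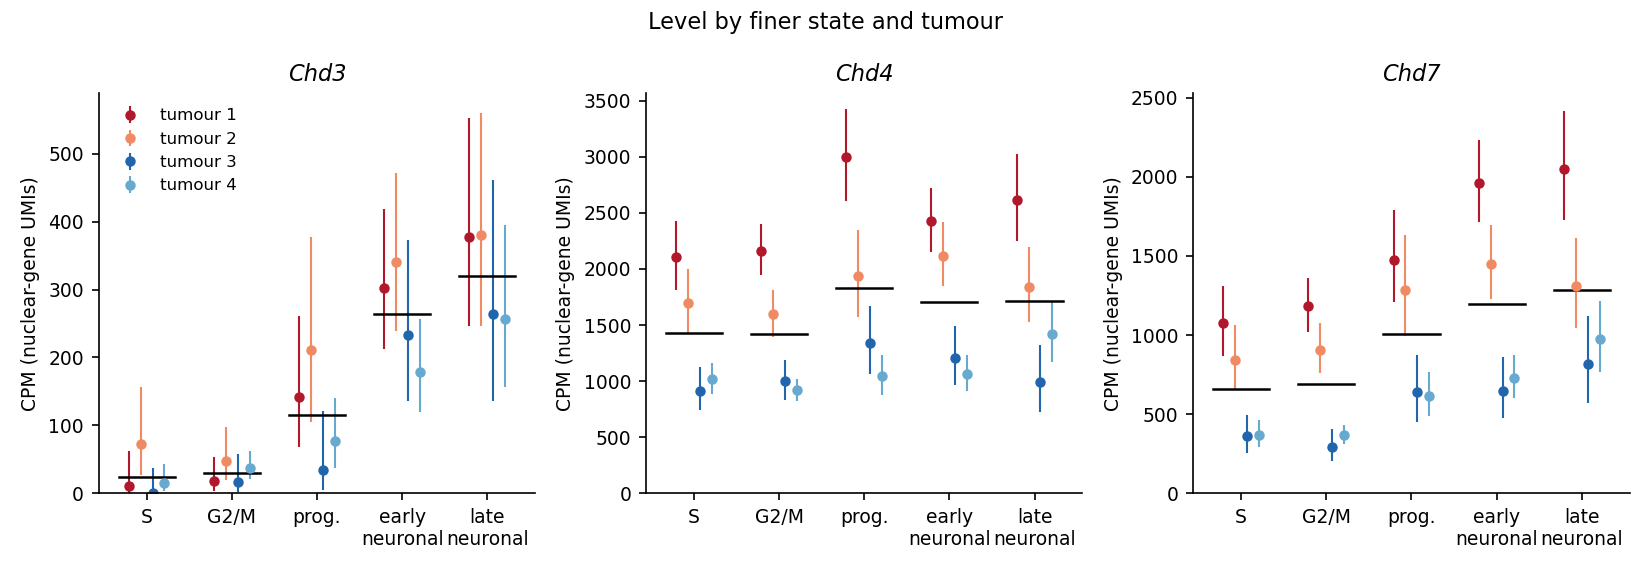
Level in CPM (y axis, linear) of Chd3, Chd4 and Chd7 in S-phase, G2/M, non-dividing progenitor (prog.), early neuronal and late neuronal cells (x axis); points are tumours 1 to 4 with exact 95% Poisson intervals and black bars are means over tumours. Chd3 has its highest mean, 320 CPM, in late neuronal cells, while the S and G2/M means of each gene lie close together.

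Chd3 RNA was not limited to the neuronal class. The 86 cells with markers of other types held 29 Chd3 UMIs, or 201 CPM (95% interval 135 to 289), with 298 CPM in 17 endothelial cells (8 UMIs), 234 CPM in 27 oligodendrocyte-lineage cells (10 UMIs) and 150 CPM in 24 microglia (5 UMIs). The 4 mural and 14 astrocyte cells had 3 Chd3 UMIs each, 468 and 86.0 CPM. Markers of oligodendrocytes summed to 454 to 657 CPM in dividing and 524 to 1324 CPM in neuronal cells, with UMIs of 14 of 14 and 11 of 14 markers and with Mog, Olig2 and Sox10 at 0 in neuronal cells. Endothelial markers summed to 13.0 to 79.3 CPM in dividing and 8.33 to 81.6 CPM in neuronal cells, with UMIs of 9 of 12 markers in each and with Kdr, Tek and Emcn at 0 in the latter. Astrocyte markers summed to 339 to 1017 CPM in dividing and 220 to 770 CPM in neuronal cells, with UMIs of 10 of 10 and 9 of 10 markers and Gja1 at 0 in the latter. Microglia markers summed to 27.6 to 178 and 25.4 to 152 CPM (12 and 11 of 13 markers, P2ry12 at 0 in both), and mural markers to 17.6 to 65.2 and 8.33 to 35.0 CPM (8 and 6 of 10, Pdgfrb at 0 in both). Progenitors had 335 to 1666 CPM of astrocyte markers (10 of 10 with UMIs). Their mean of 1009 CPM was above those of dividing (645) and neuronal cells (524). Oligodendrocyte markers summed there to 442 to 900 CPM (12 of 14), a mean of 676 CPM against 524 and 826. Microglia, endothelial and mural markers summed there to 33.5 to 199, 14.2 to 30.5 and 7.62 to 76.6 CPM (9 of 13, 2 of 12 and 5 of 10). The part of such RNA in the Chd3 and Chd7 differences was not tested. Among cells thinned to 500 UMIs, a Chd3 UMI was found in 1.37% of dividing cells, 4.07% of progenitors, 10.6% of neuronal cells and 8.14% of the cells of other types. The unthinned shares were 2.84%, 6.23%, 17.1% and 24.4%. No class that should lack Chd3 was at hand, and with a UMI in 17.1% of neuronal cells the data do not tell whether a few cells or most carry the RNA.

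Chd4, the motor that most NuRD of progenitors is known to use, was the most counted member in the dividing, progenitor, neuronal and unassigned classes. In dividing cells it stood at 2143, 1630, 961 and 953 CPM in tumours 1 to 4, in progenitors at 2997, 1934, 1342 and 1043 CPM and in neuronal cells at 2495, 2012, 1125 and 1179 CPM. The classes overlapped widely, and the tumours differed more than the classes did: in each class tumours 1 and 2 lay above tumours 3 and 4. The means were 1422 ± 576, 1829 ± 862 and 1702 ± 666 CPM (SD, n = 4).

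Within tumours Chd4 was slightly higher in neuronal than in dividing cells, 1.24-fold (95% interval 1.06 to 1.44), a log2 fold change of 0.31 (SE 0.11, adjusted p = 0.0299 by edgeR, 4 of 4 tumours). This call held in only 4 of 17 alternatives. It was lost when any 1 of the 4 tumours was left out (0.19 to 0.27, adjusted p = 0.0726 to 0.364 by edgeR), in both pairs of tumours taken alone, and with a mitochondrial share of at most 10% (0.15, adjusted p = 0.368 by edgeR). Progenitors against dividing cells gave 1.19-fold (95% interval 1.01 to 1.40, adjusted p = 0.274 by edgeR), and passed in 1 of 17 alternatives, with classes taken from clusters (adjusted p = 0.0309). Neuronal cells against progenitors gave 1.04-fold (95% interval 0.883 to 1.23, adjusted p = 0.802 by edgeR), with a negative sign in 5 of 17 alternatives. S and G2/M cells had means of 1432 ± 566 and 1419 ± 581 CPM, and early and late neuronal cells of 1703 ± 671 and 1717 ± 693 CPM (SD, n = 4), in each case with the order of the pair turning between tumours. These SDs hold the differences between tumours, and neither pair was tested. A Chd4 UMI was found after thinning in 44.6% of dividing, 50.1% of progenitor and 47.2% of neuronal cells pooled over tumours, and in 37.2% of the cells of other types. The pooled order of neuronal and dividing cells does not hold within tumours, since the neuronal share was the lower in tumours 1 (58.1% against 60.1%) and 2 (49.6% against 52.1%) and the higher in tumours 3 and 4.

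Chd5, a motor known from differentiated neurons, was almost absent from the counts. In the 3208 kept cells it had 6 UMIs, of which 4 were in dividing cells of tumour 1, 1 in dividing cells of tumour 2 and 1 in an unassigned cell of tumour 1. None of the 924 neuronal and 369 progenitor cells had one. The 717465 UMIs of the neuronal class allow a level of up to 4.18 CPM (3 counts over the 4 tumours), and those of the progenitors up to 9.57 CPM. In dividing cells the pooled level was 3.88 CPM (95% interval 1.26 to 9.05). All 6734 barcodes together held 8 Chd5 UMIs against 495 of Chd3. Chd5 did not pass the filter on low counts and was not tested. The 5 UMIs of dividing cells lie above their pooled floor of 3 counts (2.33 CPM), but come from only 3 of 1164 cells in 2 tumours, so they are not independent counts, and the dividing interval spans the limit of the neuronal class. A difference between the classes was not detectable at this depth, and no Chd5 UMI stood beside those of Chd3 in neuronal cells.

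The share of each motor among Chd3, Chd4 and Chd5 UMIs was then compared, since these 3 take the same place in the complex. A UMI marks 1 captured molecule at its 3′ end and needs no division by length, but genes can differ in how well their ends are captured. Chd3 held 0.726%, 3.34%, 0.909% and 2.99% of these UMIs in dividing cells, 4.52%, 9.82%, 2.44% and 6.80% in progenitors and 11.7%, 15.02%, 17.9% and 14.8% in neuronal cells of tumours 1 to 4. The neuronal shares lay above all dividing and all progenitor shares. Chd4 held nearly all of the remainder, with 82.1% to 88.3% in neuronal cells. The Chd3 share was higher in neuronal than in dividing cells by 12.9 ± 2.78 percentage points (mean and SD of the paired difference, n = 4 tumours, 4 of 4, exact two-sided sign-flip permutation p = 0.12). That is the smallest p that 4 tumours can give. The difference was 3.91 ± 2.02 points between progenitors and dividing cells and 8.95 ± 4.49 points between neuronal cells and progenitors, also in 4 of 4 tumours (n = 4, exact permutation p = 0.12 for each, unadjusted, the smallest possible). With 9 such comparisons made, for 3 genes and 3 pairs of classes, none can pass an adjustment.

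**Figure D3:**
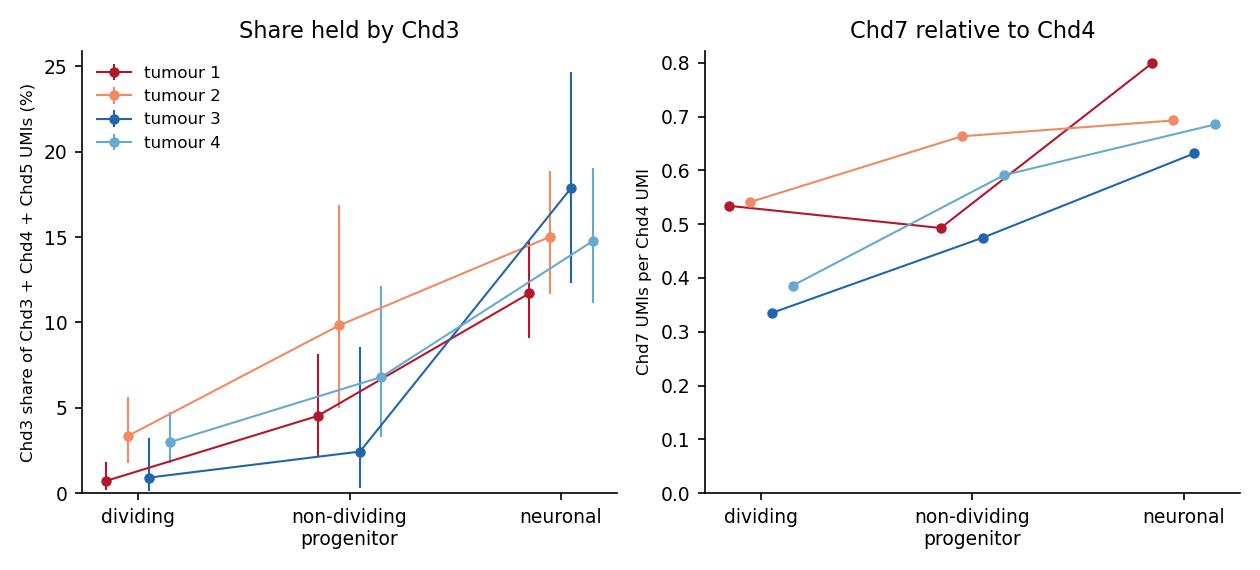
Left, percent of Chd3, Chd4 and Chd5 UMIs that belong to Chd3 (y axis, exact 95% binomial intervals), and right, Chd7 UMIs per Chd4 UMI (y axis), in dividing, non-dividing progenitor and neuronal cells (x axis), with 1 line per tumour. The Chd3 share is 0.726% to 3.34% in dividing and 11.7% to 17.9% in neuronal cells, and Chd7 per Chd4 is 0.335 to 0.541 and 0.632 to 0.799.

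Chd7, the member outside NuRD, was also higher in neuronal cells. It stood at 1145, 883, 322 and 368 CPM in dividing cells of tumours 1 to 4, at 1477, 1283, 637 and 617 CPM in progenitors and at 1994, 1394, 710 and 808 CPM in neuronal cells. Tumours 1 and 2 lay above tumours 3 and 4 in every class, so the classes overlapped across tumours. Within each tumour the order was dividing, progenitor, neuronal. The means were 679 ± 401, 1004 ± 442 and 1226 ± 594 CPM (SD, n = 4).

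Neuronal cells had 1.94-fold the Chd7 level of dividing cells (95% interval 1.63 to 2.31), a log2 fold change of 0.96 (SE 0.13, adjusted p = 4.66e-08 by edgeR, 4 of 4 tumours). The call held in 16 of 17 alternatives, in tumours 1 and 2 alone (0.73) and in tumours 3 and 4 alone (1.11), and was lost when the tumour block was left out (0.92, adjusted p = 0.25 by edgeR). Progenitors exceeded dividing cells by 0.53 (SE 0.14, adjusted p = 0.0109 by edgeR) and neuronal cells exceeded progenitors by 0.42 (SE 0.14, adjusted p = 0.0325 by edgeR), each in 4 of 4 tumours. These calls held in 10 and 7 of 17 alternatives. The first was lost without tumour 3 or 4 (adjusted p = 0.0913 and 0.17 by edgeR), in tumours 1 and 2 alone (0.33, adjusted p = 0.44) and at 1000 UMIs (0.15, adjusted p = 0.792). The second was lost without tumour 1, 3 or 4 (adjusted p = 0.376, 0.102 and 0.329 by edgeR) and in either pair alone. With all 4 tumours it was also lost by DESeq2 (0.37, adjusted p = 0.13) and with upper-quartile scaling (0.39, adjusted p = 0.0566 by edgeR). The same held at a mitochondrial share of at most 10% (0.32, adjusted p = 0.182) and after thinning (0.26, adjusted p = 0.393, both by edgeR).

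S and G2/M cells had Chd7 means of 661 ± 356 and 687 ± 429 CPM, and early and late neuronal cells 1196 ± 625 and 1286 ± 549 CPM (SD, n = 4), so neighbours within a class did not differ beyond their spread. After thinning, 22.8% of dividing, 32.8% of progenitor and 38.2% of neuronal cells had a Chd7 UMI, against 15.1% of the cells of other types. The 17 endothelial cells had no Chd7 UMI among 26875, which allows up to 112 CPM. As a ratio added after the values were seen, Chd7 UMIs per Chd4 UMI were 0.534, 0.541, 0.335 and 0.386 in dividing, 0.493, 0.663, 0.475 and 0.591 in progenitor and 0.799, 0.693, 0.632 and 0.686 in neuronal cells of tumours 1 to 4. The neuronal and dividing ratios did not overlap, while progenitors exceeded dividing cells in 3 of 4 tumours and were lower in tumour 1.

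**Figure D4:**
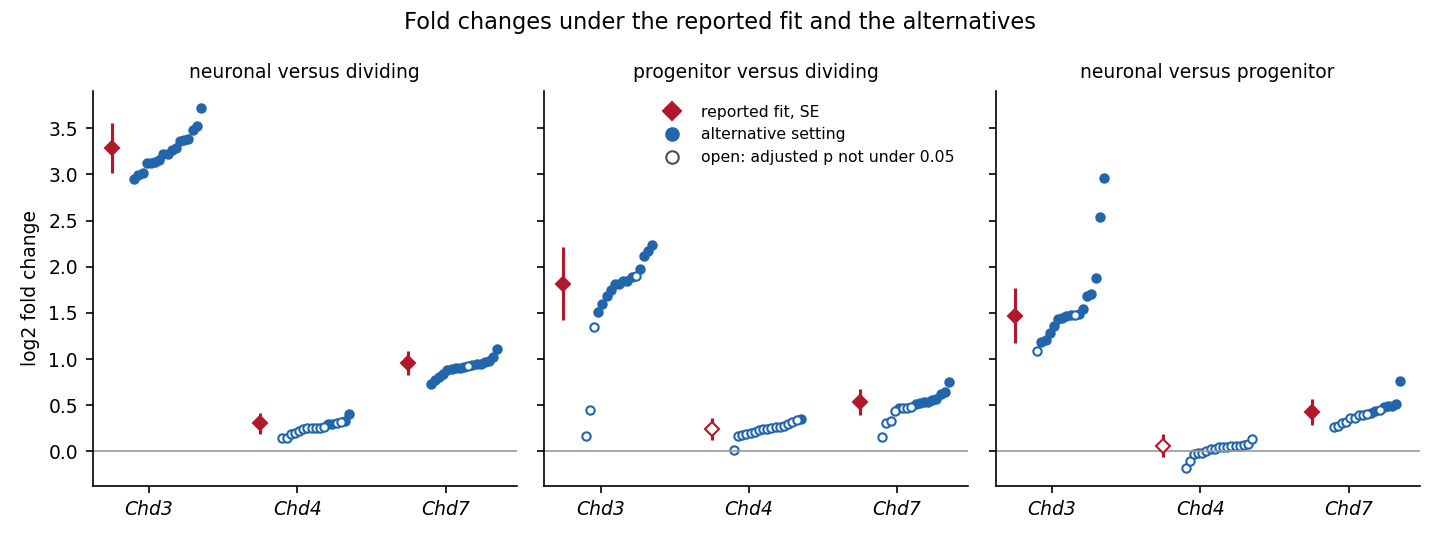
Log2 fold change (y axis) of Chd3, Chd4 and Chd7 (x axis) in the 3 comparisons of cell classes; diamonds are the reported fit with its SE, circles the 17 alternative settings sorted by value, and open symbols have an adjusted p not under 0.05. All circles of Chd3 and Chd7 between neuronal and dividing cells lie at 0.73 or above, while most circles of Chd4 are open.

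The other NuRD subunits were compared next. Of 12 further NuRD genes, 9 were tested between neuronal and dividing cells, and 0 were called higher and 4 lower (edgeR, adjusted p under 0.05), beside 19.4% higher and 16.9% lower over all genes tested. With 9 genes, 0 higher is near that share. Their median log2 fold change was -0.55 against 0.03 over all genes. In neuronal cells the histone deacetylase gene Hdac1 fell by 0.92 (SE 0.26), the histone-binding Rbbp7 by 0.98 (SE 0.21) and Rbbp4 by 0.55 (SE 0.17), and the methyl-CpG-binding domain gene Mbd3 by 0.76 (SE 0.25), each lower in 4 of 4 tumours. All 4 calls were lost in tumours 1 and 2 alone and with no tumour block, those of Rbbp4, Rbbp7 and Mbd3 also with at least 1000 UMIs, and that of Mbd3 without tumour 3. Hdac2 had 387 CPM in dividing and 370 CPM in neuronal cells, with a log2 fold change of -0.05 (SE 0.15, adjusted p = 0.842 by edgeR). Mta1, Mta3 and Mbd2 were too low to test. In progenitors against dividing cells 1 of the 9 was called, a share near the 6.15% of all genes. It was Rbbp7, which fell by 0.78 (SE 0.25, adjusted p = 0.0481 by edgeR) and was lost in every leave-one-out fit. Between neuronal cells and progenitors 0 of 9 were called by edgeR and 0 by DESeq2, with 1 at an unadjusted p under 0.05. All genes gave 15.4% there, so such a low count is no result about these 9. Whether the NuRD genes differ from other genes as a set was not tested.

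Of the 6 other CHD genes, 5 were tested, with a median log2 fold change of 0.33 between neuronal and dividing cells, 2 called higher and 1 lower by edgeR (19.4% and 16.9% of all genes) and 1 higher by DESeq2. Chd9, of the Chd7 subfamily, was higher in neuronal than in dividing cells by 0.91 (SE 0.22, adjusted p = 0.000723 by edgeR) and than in progenitors by 1.31 (SE 0.30, adjusted p = 0.00114 by edgeR), each in 4 of 4 tumours, and the first call was lost without tumour 1. Chd2 was higher than in dividing cells by 0.53 (SE 0.18, adjusted p = 0.0173 by edgeR), and Chd1 fell by 0.51 (SE 0.19, adjusted p = 0.0296 by edgeR). The Chd2 call was lost without any 1 of the tumours and that of Chd1 without tumour 1 or 4. Chd2 was also called higher than in progenitors, by 0.68 (SE 0.24), and Chd1 fell by 0.78 (SE 0.24) from dividing cells to progenitors, both lost in at least 3 of the 4 leave-one-out fits. Chd6 (-0.07) and Chd8 (0.33) did not pass, and Chd1l was too low to test.

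The BAF (SWI/SNF) remodellers are known to exchange Actl6a for Actl6b as neurons form. Of 26 BAF genes 22 were tested between neuronal and dividing cells, 5 were called higher and 4 lower, and the median log2 fold change was 0.10. These counts are near the 19.4% higher and 16.9% lower of all genes and are no result about BAF genes as a group. DESeq2 called 2 higher and 2 lower. Actl6b rose by 2.76 (SE 0.32, adjusted p = 1.32e-09 by edgeR), from 21.3 ± 6.78 to 145 ± 63.5 CPM (SD, n = 4), and Smarcc2 by 1.01 (SE 0.16), while Actl6a fell by 0.71 (SE 0.25, lost without tumour 4) and Smarcc1 by 0.68 (SE 0.16). Actl6b had 96 UMIs in neuronal, 25 in dividing and 17 in progenitor cells, so its passing the filter on low counts is not independent of its difference. Smarcd1, Smarca2 and Arid1b were called higher and Smarcd3 and Brd7 lower, and each of these 5 calls was lost when at least 1 tumour was left out. Smarca4, the main BAF motor, had 578 CPM in dividing and 577 CPM in neuronal cells. Smarcc2 (0.79, lost without tumour 4) and Actl6b (1.43, lost without tumour 1 or 3) were also called between neuronal cells and progenitors, and 0 of 22 between progenitors and dividing cells by edgeR or DESeq2, with 4 at an unadjusted p under 0.05. The shares of all genes called were 15.4% and 6.15%.

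Among 13 tested genes of the ISWI and INO80 remodellers and Atrx, 4 were called higher and 5 lower in neuronal than in dividing cells, beside 19.4% and 16.9% of all genes, with a median log2 fold change of 0.00. Smarca1 (Snf2l), an ISWI motor, rose by 1.89 (SE 0.39), and Smarca5 (Snf2h), the ISWI motor of dividing progenitors, fell by 0.42 (SE 0.16, lost without tumour 1 or 3). Smarca1 had 62 UMIs in neuronal, 28 in dividing and 11 in progenitor cells, so its passing the filter on low counts is not independent of its difference. The partners of Smarca1 and Smarca5 moved both ways: Baz2a rose by 1.16 and Baz2b by 0.82, while Baz1a fell by 1.51 and Baz1b by 0.63. Ruvbl1 fell by 1.12 (lost without tumour 4), Ruvbl2 by 0.96, and Atrx rose by 0.39 (lost without tumour 3 or 4). Between progenitors and dividing cells 0 of 13 were called by edgeR or DESeq2, beside 6.15% of all genes, with 4 at an unadjusted p under 0.05. Baz2b (0.66) and Ruvbl1 (-1.16) were called between neuronal cells and progenitors, where 15.4% of all genes passed, each lost in at least 2 of the 4 leave-one-out fits. Baz1a was also lower in neuronal cells than in progenitors, and fell by 1.84 (SE 0.32, adjusted p = 3.82e-05 by edgeR).

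The 4 genes known to be linked to Chd7 in granule cells or newborn neurons were all called higher in neuronal than in dividing cells by edgeR, beside 19.4% of all genes, and 3 of them by DESeq2, with a median log2 fold change of 0.89. Sox4, a neuronal differentiation factor, rose by 1.26 (SE 0.16), Reln, the secreted guide of migrating neurons, by 0.95 (SE 0.21), Sox11 by 0.82 (SE 0.26) and Top2b, a topoisomerase that binds with Chd7, by 0.49 (SE 0.14, lost without tumour 4). Sox4, at 1.22 (SE 0.19), and Reln, at 0.82 (SE 0.28), were also called higher than in progenitors, beside 9.13% of all genes, the latter lost without any 1 of the tumours. Between progenitors and dividing cells 0 of 4 were called by edgeR or DESeq2, beside 6.15% of all genes, with 0 at an unadjusted p under 0.05. Sox11 was higher in only 3 of 4 tumours and was lost without tumour 1 or 4.

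**Figure D5:**
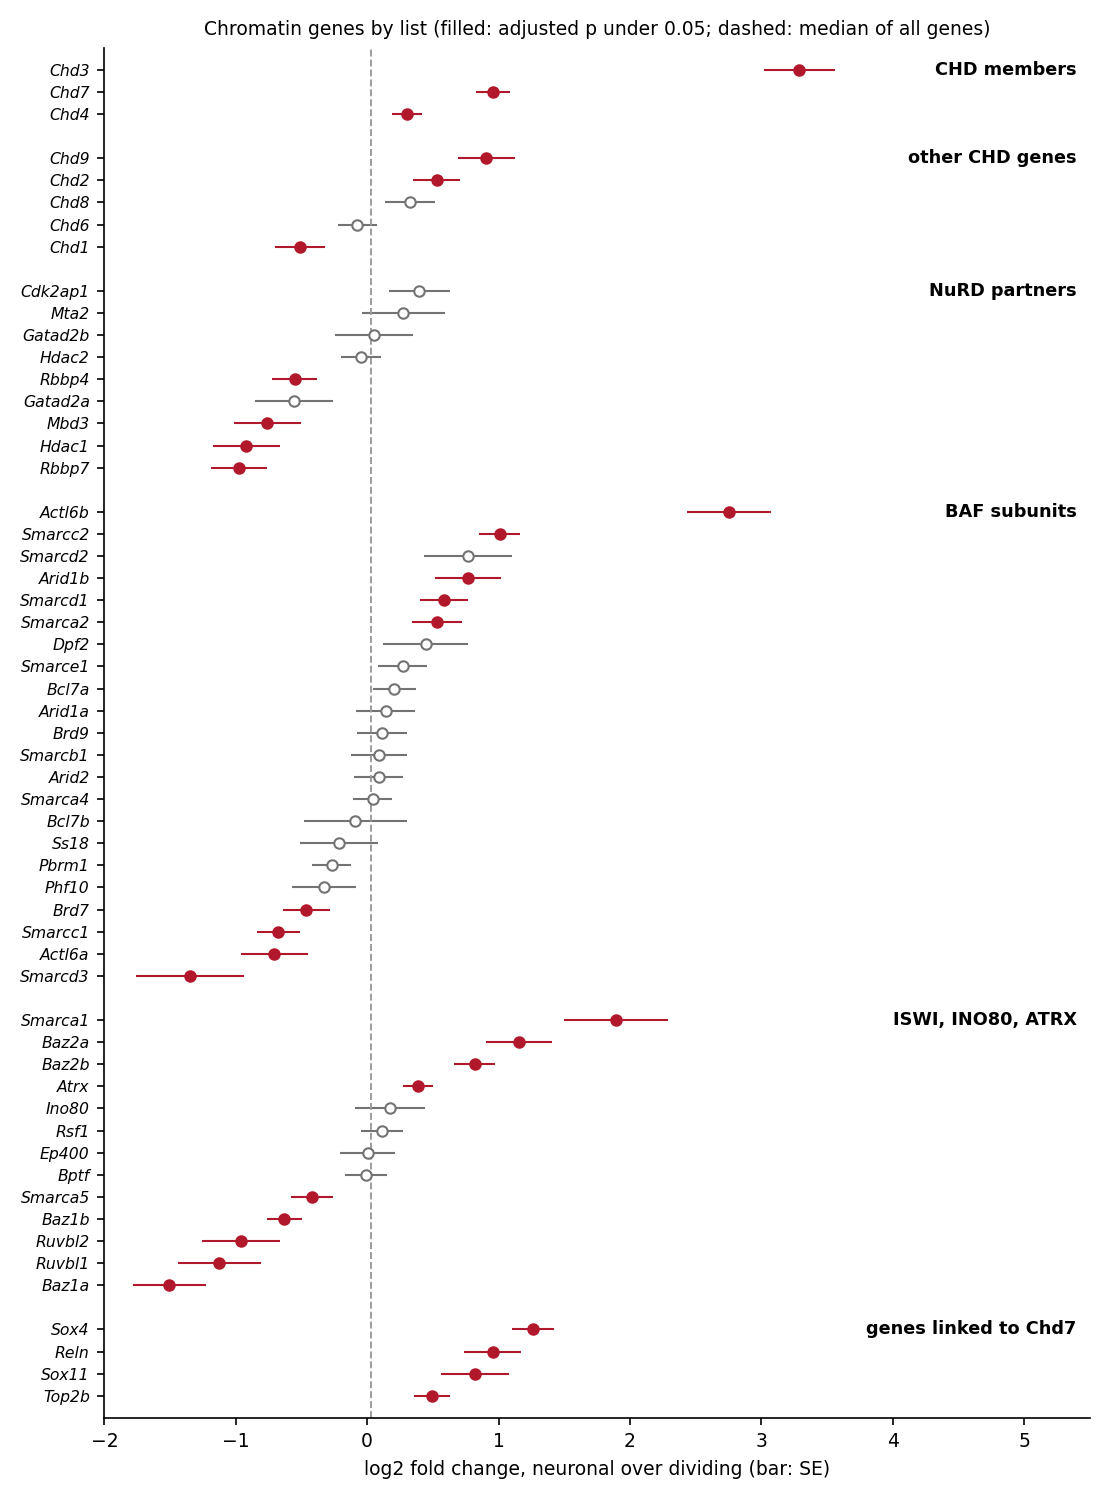
Log2 fold change of neuronal over dividing cells (x axis, bars are SE) for the tested genes of each list (y axis); filled points have an adjusted p under 0.05 by edgeR and the dashed line is the median of all genes tested, 0.03. Chd3 at 3.29 and Actl6b at 2.76 lie farthest right, and the called NuRD partners all lie left of 0.

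The genes whose levels ran most like each member were found over the 12 sums of tumour and class, centred within the tumour, among 4796 other genes. For Chd3 they were Ckb (r = 0.98), the brain-type creatine kinase, Kidins220 (r = 0.98), a neurotrophin receptor scaffold, and Serinc1 (r = 0.98). For Chd4 they were Smap1, Ldb1 and Sirt2 (r = 0.95 to 0.96), and for Chd7 Xpr1, D4Wsu53e and Aplp1 (r = 0.97 for each). Chd3 and Chd7 correlated at r = 0.90 over the same sums, Chd4 and Chd7 at 0.78 and Chd3 and Chd4 at 0.74. The 12 sums share 4 libraries and the contrast of classes, so these values describe likeness of pattern in these tumours and carry no p.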

How the data were processed

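Drop-seq libraries of 4 tumours were analysed, all of 1 labelled group. The deposited values are whole-number UMI counts per gene and cell barcode, 1 table per tumour, without normalization. Papain dissociation and 3′-biased, cell-indexed cDNA are given per the labels' protocols, and STAR and mm10 per the submitters' processing notes. The counting software and its settings are not given in the sources used here. Cell names in 6 further tables (11203 cell columns) could not be tied to any labelled sample, and those tables were left aside.

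The members, gene lists, class rule and tests were chosen with earlier results of these data known. Barcodes with at least 500 UMIs were kept and Scrublet doublets removed (scanpy 1.11.5, expected share 6%, seed 1). It marked only 14 of 3222, so undetected doublets remain possible. A list's share of a cell's nuclear-gene UMIs was divided by its mean over the tumour. Dividing cells had a relative share of the dividing list of at least 1 and above the neuronal one. Neuronal cells had a neuronal share of at least 1, not below the others, and progenitors a progenitor share of at least 1 above the neuronal one with a dividing share under 0.5, each with at least 2 UMIs of the list. The list of inhibitory neurons had 2 genes in the tables and could name no cell. The 22 mitochondrially encoded genes were left out of CPM.

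UMI counts were summed per tumour and class and fitted in edgeR 4.0.16 (R 4.3.3; TMM, filterByExpr, quasi-likelihood test, Benjamini-Hochberg adjustment over all genes) with the tumour as a block, since its sums come from 1 animal. Deviations of same-tumour sums correlated at r = 0.40 to 0.73. Genes of marker lists and mitochondrial genes are left out of counts of calls. SEs were derived from the fold change and its F statistic. Counts were also simulated with an assumed dispersion (spread beyond counting error) of 0.02 for every gene and 200 genes changed in neuronal sums alone. On these (4911 genes tested) the fit recovered 66.2% of tested 2-fold and 97.3% of tested 4-fold changes, and 0.813% of its calls were false. In the real sums the dispersion was estimated and 36.3% of genes passed between neuronal and dividing cells, so these rates need not hold there. Alternatives were DESeq2 1.42.0, other scaling and filters, no block, tumours left out, each pair alone, other cell filters and cuts, thinning and Leiden clusters (leidenalg 0.10.2), the last chosen for 2 of the comparisons after the data were seen. Intervals at 95% are exact for CPM (Poisson) and shares (Clopper-Pearson), and assume a normal error of the log2 value for fold changes. The exact ones and the floors of 3 counts cover counting error only. Named genes were the 4 members, the list genes that passed, and the 3 genes with the highest correlation with each tested member (log2 CPM, prior count 2). Hdac2, Smarca4, Chd6 and Chd8 were named from the lists after their values were seen.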

Additional observations from a re-analysis of the deposited data

Results flagged for a closer look

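With 41 sets of 4 tumour values checked for a sample far from the others, 2 had one, both for Chd5 in tumour 1. Chance gives about 1 in 20 for normally distributed values, a rate that does not apply to counts this low. In S-phase cells Chd5 had 22.4 CPM in tumour 1, from 2 UMIs, and 0 in the other tumours. In unassigned cells it had 9.10 CPM in tumour 1, from 1 UMI, and 0 in the other tumours. Both counts are under the floor of 3. A set in which only 1 tumour has any UMI is flagged whatever the count, so the zeros of the other tumours fixed both flags.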

How the results depend on the processing

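Of 1575 values of single genes under alternatives, 1306 stayed on the same side of the threshold, 244 lost their call, 25 gained one and 0 calls reversed. Among the 1306, 77 turned sign, 0 of them past the threshold in either fit. The counts of genes called moved by over 1.5 times as follows. Between neuronal and dividing cells (1741 in the reported fit) there were 526 with no replicate block, 940 in tumours 1 and 2 alone, 643 with at least 1000 UMIs and 986 after thinning. Between progenitors and dividing cells (295, 77 higher and 218 lower) there were 185 by DESeq2, 516 with no filter on low counts (39 higher and 477 lower), 74 with no replicate block, 129 in tumours 1 and 2 alone, 130 with at least 1000 UMIs and 137 after thinning. Between neuronal cells and progenitors (740) there were 492 by DESeq2, 98 with no replicate block, 237 in tumours 1 and 2 alone, 280 with at least 1000 UMIs, 391 after thinning and 1413 with clusters. Leaving out 1 tumour gave 1218 to 1726, 178 to 294 and 405 to 745, with 178 and 405 both without tumour 4. At 1000 UMIs 2352 genes and after thinning 3071 genes were left to test, against 4797; otherwise the cause was not tested. Without the block, Chd3 kept its call only between neuronal and dividing cells and Chd7 kept none. The difference in Chd3 share stayed between 11.5 and 14.3 points. Whole-tumour means over the alternatives were 89.6 to 131 CPM for Chd3 (117 reported), 1273 to 1682 CPM for Chd4 (1518), 0.533 to 4.52 CPM for Chd5 (2.26) and 670 to 983 CPM for Chd7 (855). Of the 29 calls of list genes between neuronal and dividing cells, 3 held in all alternatives in which they were tested (Baz1a and Sox4 in 17, Actl6b in 16), 13 held in all 4 leave-one-out fits and 29 kept their direction wherever tested. Low counts left fewer alternatives for some, down to 10 for Smarca1, 12 for Smarcd3 and 15 for Ruvbl2. With no replicate block 26 of 29 were lost, in tumours 1 and 2 alone 18 of 28 and in tumours 3 and 4 alone 5 of 27. Depth limits Chd5 in every class and Chd3 in progenitors and dividing cells.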
